A study of Mus musculus with 6 samples.

Results

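The Ly6 genes encode small surface proteins that a glycolipid (GPI) anchor holds in the outer leaflet of the plasma membrane, and blood cell types carry different members of the family. Ly6a encodes Sca-1, the antigen by which mouse hematopoietic stem and progenitor cells (HSPCs) are sorted, and interferons induce it, as they do the broadly expressed Ly6e. Ly6c1 and Ly6c2 encode forms of the Ly6C antigen of monocytes, neutrophils, some lymphocytes and endothelium. Ly6g encodes the neutrophil antigen Ly6G, and Ly6d marks lymphoid progenitors that enter the B cell lineage. These 6 genes were taken by name from the 24965 genes of an RNA-seq table of donor HSPCs collected 6 h after transplantation.

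Of the 6 genes, Ly6e rose in Hemgn-/- donor cells, from 176 ± 5.62 to 227 ± 22.3 FPKM (SD, n = 3 each), and the remaining members did not pass the test. Among all genes tested 6.46% were called, and the Ly6e call was lost under 9 of 15 alternative settings. Ly6a averaged 9.38 ± 1.01 FPKM over WT and 14.7 ± 3.01 FPKM over Hemgn-/- libraries, with every Hemgn-/- library above every WT library, as for 19.2% of all genes, but an adjusted p above 0.05. Ly6g and Ly6c2, the most abundant members, had lower means in Hemgn-/- cells and overlapping groups, Ly6d differed little in its means, and Ly6c1 was near the limit of the filter.

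Donor bone marrow came from C57BL/6 mice carrying CD45.2 that were WT or lacked Hemgn (Hemgn-/-) in the whole body through an edit made with zinc finger nucleases. Each recipient carried CD45.1, had been irradiated with 9 Gy in a split dose, and received 20000000 donor cells, so both groups share the irradiated host. The labels describe the sorted cells as donor cells that lack lineage markers and carry Sca-1, while the design text adds c-Kit, and these sources also differ on the vein injected and on the library kit (TruSeq or Smart-Seq2). There were 3 libraries of each genotype, described as biological replicates, at 23668008 to 28897379 fragments each.

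The values are FPKM, fragments scaled to the length of a gene's exons and to the depth of the library. A comparison of levels between genes depends on the length used, as shown further on for Ly6c2 and Ly6g. Hemgn itself measured 5.64, 2.96 and 4.68 FPKM among WT libraries against 0.755, 0.913 and 1.60 FPKM among Hemgn-/- libraries. The markers of the labelled cells were low in all 6 libraries. Kit, which encodes c-Kit, was at 6.14, 6.36 and 7.24 FPKM in WT and 5.50, 5.90 and 5.65 FPKM in Hemgn-/- libraries. The most abundant transcript of every library was that of Ngp, a protein of neutrophil granules, at 26488 to 46692 FPKM. The neutrophil antigen gene Ly6g thus stood far above the sort marker gene Ly6a in every library, with 34.9 to 52.5 times its level in WT and 17.6 to 24.0 times in Hemgn-/- libraries. In a bulk sample, a change in the number of cells of a type and a change in RNA per cell cannot be told apart.

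The Hemgn-/- libraries numbered 1 and 2 by their columns differed from each other for short genes, in opposite directions. Each library was set against the mean of the other 2 of its group on the log2(FPKM + 1) scale, among genes with a mean of at least 10 FPKM. For the 259 genes with under 1 kb of exons the median difference was −0.21 in replicate 1 and 0.20 in replicate 2, for the 576 genes of 1 to 2 kb it was −0.10 and 0.11, and for the 1756 genes of 4 kb or longer it was 0.024 and −0.030. The other 4 libraries had medians from −0.025 to 0.045 for the short genes. By exons, the measure of these classes, Ly6d (744 bases) and Ly6g (942) are under 1 kb, and Ly6a (1205) and Ly6c1 (1677) are of 1 to 2 kb. Ly6c2 (2740) and Ly6e (3784) fall in the class of 2 to 4 kb, where the medians of replicates 1 and 2 were −0.0035 and 0.0048. The longest coding transcripts have 744 to 955 bases for 5 members and 2281 bases for Ly6e. Hemgn-/- replicate 1 was the lowest of its group for 6 of the 6 members. Each member's fold change is therefore also given without each of these libraries, and the part of transcript length in the results was not tested.

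The 6 genes lie together on chromosome 15 (GRCm38), in a stretch of 397 kb with 25 annotated genes, 20 of them in the table. Ly6d lies from 74762056 to 74763620 on the minus strand, Ly6e from 74955051 to 74959905 on the plus strand, and Ly6a (Sca-1) from 74994877 to 74998031 on the minus strand. Ly6c1 follows from 75044018 to 75048830 and Ly6c2 from 75108158 to 75111970, both on the minus strand, and Ly6g from 75155240 to 75159126 on the plus strand. All 6 are annotated as protein coding, and the FPKM values count fragments over their exons.

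The members are old copies of each other, and how alike they are bears on which gene a fragment is counted for. The coding sequences of Ly6c1 and Ly6c2, both of 396 bases, were 97.7% identical, with 9 mismatches and no gap. Ly6a was 82.8% identical to Ly6c1, 82.3% to Ly6c2 and 84.1% to Ly6g, while Ly6d and Ly6e were between 51.8% and 56.4% identical to every other member. The opening 150 bases of the Ly6c1 and Ly6c2 coding sequences hold 6 of the 9 mismatches, the most of any stretch of this length in them. They are shown from the start codon, with the bases that differ in capitals (GENCODE M21 transcripts of GRCm38).
Ly6c1: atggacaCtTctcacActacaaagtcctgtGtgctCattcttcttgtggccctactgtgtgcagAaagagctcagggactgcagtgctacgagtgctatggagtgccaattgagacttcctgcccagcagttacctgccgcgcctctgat
Ly6c2: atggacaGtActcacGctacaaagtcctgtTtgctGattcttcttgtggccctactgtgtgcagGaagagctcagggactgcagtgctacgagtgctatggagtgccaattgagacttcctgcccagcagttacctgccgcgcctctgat
After the last capital the rest of this window is the same in both genes.

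**Figure D1:**
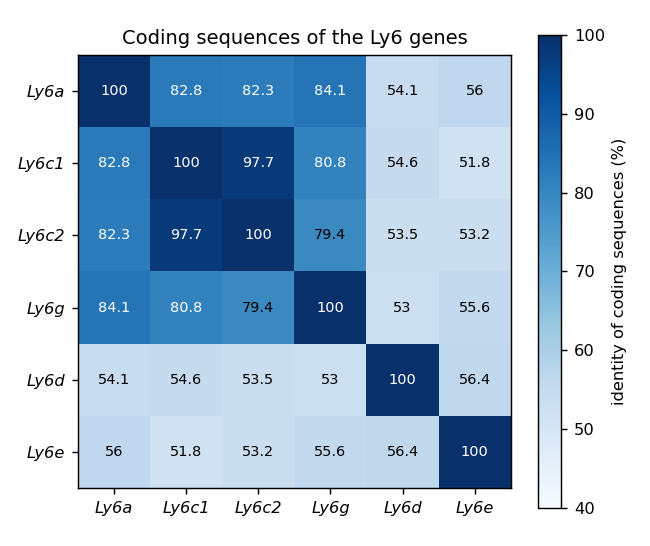
Identity of the coding sequences of the 6 Ly6 genes in percent of aligned columns, gaps included, from global alignment of the longest coding transcripts. Ly6a, Ly6c1, Ly6c2 and Ly6g form a block between 79.4% and 97.7%, and Ly6d and Ly6e lie at most at 56.4% to any other member.

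Exact sharing was counted over all annotated transcripts. Of the stretches of 100 bases in Ly6c1 transcripts, 10.1% also occurred in transcripts of another gene, and of those in Ly6c2 transcripts 5.81%. At 150 bases these shares were 2.29% and 1.43%, with the other Ly6c gene as the source of all of them. Ly6a shared 19.0% of its stretches of 50 bases, 1.45% of those of 100 bases and none of 150 bases. Ly6d and Ly6e shared none at any of these lengths, so no stretch of these lengths from their transcripts matched another gene. For Ly6g the share was 0.448% at 50 bases and 0 at the longer ones.

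RefSeq promoter windows (GRCm38.p6, from 250 bases before to 50 after a transcript start) were matched for 3 members, Ly6c1, Ly6c2 and Ly6g, and for Ly6a2, the RefSeq name of the pseudogene I830127L07Rik described further on. Ly6c2 and Ly6a2 are shown because their transcripts were both lower in Hemgn-/- libraries on average and their windows are nearly the same, with 95.4% of aligned columns identical. The windows are Ly6c2 at chr15:75111922-75112221 and Ly6a2 at chr15:75135079-75135378, both on the minus strand and written 5′ to 3′. Capitals mark the bases without an identical partner, from 4 mismatches and 10 gap columns.
Ly6c2: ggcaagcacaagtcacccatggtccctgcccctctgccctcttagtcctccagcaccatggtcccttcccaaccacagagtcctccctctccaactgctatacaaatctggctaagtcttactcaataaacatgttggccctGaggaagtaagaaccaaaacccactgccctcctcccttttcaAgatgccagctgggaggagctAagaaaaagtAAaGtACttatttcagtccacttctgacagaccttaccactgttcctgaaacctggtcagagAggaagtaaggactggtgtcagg
Ly6a2: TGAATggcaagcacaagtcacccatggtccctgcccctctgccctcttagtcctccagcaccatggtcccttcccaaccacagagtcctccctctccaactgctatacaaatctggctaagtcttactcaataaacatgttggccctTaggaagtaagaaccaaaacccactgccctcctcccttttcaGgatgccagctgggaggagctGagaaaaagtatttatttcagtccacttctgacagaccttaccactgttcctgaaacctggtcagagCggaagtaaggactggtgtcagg
The windows of Ly6c2 and Ly6g, each at the annotated start that aligned best, had 72.4% of aligned columns identical. On both strands these windows were searched for the interferon-gamma activated site TTCNNNGAA, which 8.3% of all 32851 promoter windows of 300 bases hold, and for the core of the interferon-stimulated response element, GAAA and again GAAA after 2 bases, which 3.44% hold. Neither was found in the windows of Ly6c1, Ly6c2, Ly6g or Ly6a2, which says only that these letters are not in these windows. At these shares most windows hold neither. No window was matched for Ly6a, Ly6d or Ly6e, so Ly6a and Ly6e, named above as induced by interferons, were not searched.

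Levels of the members spanned from 0.304 to 434 FPKM. In WT libraries the order of the means was Ly6g, Ly6c2, Ly6e, Ly6d, Ly6a and Ly6c1, and no neighbours in this order overlapped. In Hemgn-/- libraries the order of the means was the same, but the values of Ly6g and Ly6c2 overlapped, as did those of Ly6c2 and Ly6e. The place of Ly6c2 depends on the length used. Its FPKM divides by 2740 bases, the union of the exons of 4 annotated transcripts, whereas its longest coding transcript has 822 bases. With the latter length for every member, Ly6c2 was at 989 ± 96.2 and Ly6g at 391 ± 39.5 FPKM among WT libraries (SD, n = 3 each), the reverse of their order. Among Hemgn-/- libraries the mean of Ly6e was then above that of Ly6g, with overlapping values. This setting, chosen after the values were seen, changes levels and no fold change.

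**Figure D2:**
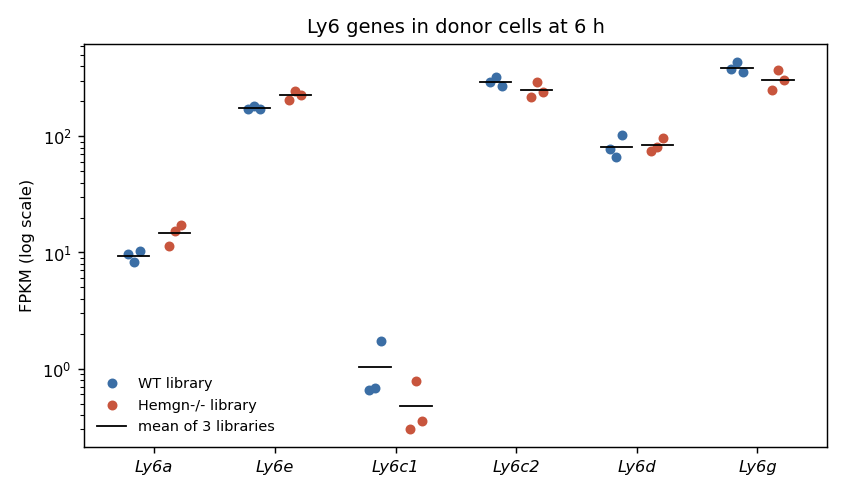
FPKM of the 6 Ly6 genes in each library on a log axis, WT in blue and Hemgn-/- in red, with the mean of 3 libraries as a black line. The groups lie apart for Ly6a and Ly6e and overlap for the other 4 genes, and Ly6c1 is the lowest member in every library.

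For the comparison of genotypes, limma was run on log2(FPKM + 1) values of the 13739 genes that exceeded 1 FPKM somewhere among the 6 libraries, and p-values were adjusted over all of these genes. On this scale the change of a gene of low level comes out too small. An adjusted p under 0.05 was found for 6.46% of all genes tested (887 genes), 4.37% with higher values in Hemgn-/- cells. Of the 6 members, all of which passed the filter, 1 was called, Ly6e. The study's thresholds of an unadjusted p under 0.05 and 1.5-fold held for 6.83% of all genes and for 0 of the 6 members, with Ly6a just under 1.5-fold on this scale. The groups did not overlap for 27.4% of all genes, 19.2% with higher and 8.18% with lower values in Hemgn-/- cells, and for 2 of the 6 members, Ly6a and Ly6e, both higher. Over all genes tested the log2 fold changes had a median of 0.087.

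**Figure D3:**
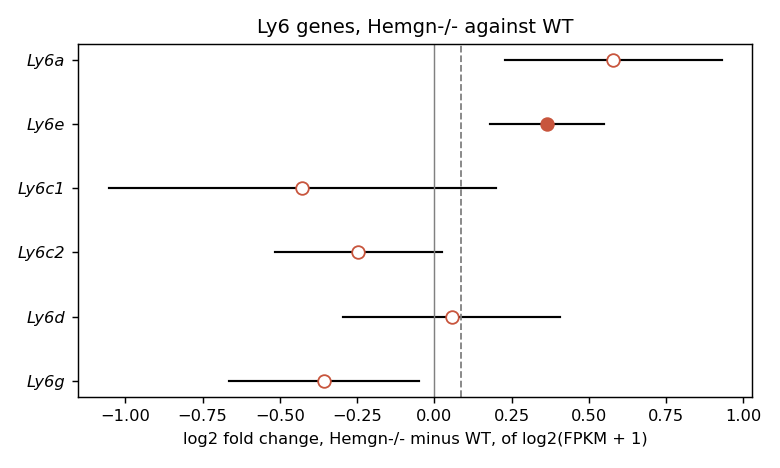
Log2 fold change of each Ly6 gene, Hemgn-/- minus WT, with its 95% confidence interval from limma (n = 3 libraries each), and a dashed line at the median of all genes tested (0.087). The filled point, Ly6e, has an adjusted p under 0.05, and the intervals of Ly6a, Ly6e and Ly6g leave out 0 before adjustment.

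Ly6a, the gene of the sort marker Sca-1, measured 9.64, 8.27 and 10.2 FPKM among WT libraries against 11.4, 15.4 and 17.3 FPKM among Hemgn-/- libraries. No value was shared between genotypes, and the lowest Hemgn-/- library lay close to the highest WT library. Behind them were 275, 255 and 342 fragments for WT against 376, 485 and 601 for Hemgn-/- libraries. The log2 fold change was 0.58 (standard error 0.15, 95% interval 0.23 to 0.93), with an adjusted p of 0.0642 from limma, and the ratio of the FPKM means was 1.56. It was positive under 15 of 15 alternative settings, and its adjusted p ran from 0.0289, with every library rescaled to the same FPKM total, to 0.233, without Hemgn-/- replicate 3. Without Hemgn-/- replicate 1 the log2 fold change was 0.74 with an adjusted p of 0.0385 from limma, and leaving out replicate 2 gave 0.54. Because the cells were sorted for the protein that Ly6a encodes, its transcript was measured within a gate on its own product.

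Ly6e, an interferon-inducible member known for its effects on virus entry, measured 173, 182 and 172 FPKM among WT libraries against 204, 248 and 229 FPKM among Hemgn-/- libraries. The WT libraries lay close together, and every Hemgn-/- library was above them. Its log2 fold change was 0.36 (standard error 0.080, 95% interval 0.18 to 0.55), with an adjusted p of 0.0332 from limma and a ratio of means of 1.29. The call rests on many fragments, 15519 to 17987 in WT and 21158 to 25060 in Hemgn-/- libraries. Even so it held under 6 of 15 alternatives, and the adjusted p from limma ran from 0.00806 to 0.160. It was lost when any WT library was left out (0.126 for replicate 1, 0.0844 for replicate 2, 0.124 for replicate 3), as with Hemgn-/- replicates 2 (0.104) and 3 (0.160). It was also lost after median-ratio scaling, where the log2 fold change was 0.26 and the adjusted p 0.106. Leaving out Hemgn-/- replicate 1 gave a log2 fold change of 0.44 and an adjusted p of 0.0302, and leaving out replicate 2 gave 0.30.

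The log2 ratio of Ly6a to Ly6e within a library, which no scaling between libraries can move, was −4.17, −4.46 and −4.07 in WT and −4.16, −4.01 and −3.73 in Hemgn-/- libraries. The groups overlapped, and the difference of 0.26 gave p = 0.2 in an exact two-sided permutation test, whose smallest possible p with 3 libraries against 3 is 0.1. With Hemgn-/- replicate 1 left out the difference was 0.36, and it was 0.15 or 0.14 with WT replicate 2 or Hemgn-/- replicate 3 left out.

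Ly6c2, the Ly6C gene of monocytes and neutrophils, measured 294, 327 and 269 FPKM among WT libraries against 217, 296 and 241 FPKM among Hemgn-/- libraries. The groups overlapped, since Hemgn-/- replicate 2 lay above WT replicates 1 and 3. For Ly6c2 the log2 fold change was −0.25 (standard error 0.12, 95% interval −0.51 to 0.024, adjusted p = 0.277 from limma). It was negative under every alternative run, from −0.37 without Hemgn-/- replicate 2 to −0.14 without Hemgn-/- replicate 1.

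Ly6c1, the Ly6C gene found in endothelium among other cells, measured 0.655, 0.676 and 1.74 FPKM among WT libraries against 0.304, 0.775 and 0.351 FPKM among Hemgn-/- libraries. It passed the filter through WT replicate 3 alone, the library with 81 fragments where the others had 14 to 34. Its log2 fold change was −0.43 (standard error 0.27, adjusted p = 0.422 from limma), and its size depended on the setting. It was −0.19 when WT replicate 3 was left out, −0.35 and −0.57 when Hemgn-/- replicates 1 and 2 were, −0.92 with a pseudocount of 0.1 and −1.10 with voom on recovered fragments, with adjusted p-values from limma of 0.298 to 0.723 over the alternatives that kept the gene, which a mean FPKM of at least 1 did not. At this depth no difference was detectable. With the FPKM values of Ly6c1 and Ly6c2 summed, the log2 fold change was −0.25 (adjusted p = 0.271 from limma). With Ly6a added to the sum it was −0.21 (adjusted p = 0.341 from limma). Ly6c2 made up most of both sums, in WT replicate 1 294 of 304 FPKM with Ly6a included. The sums therefore stay close to Ly6c2 and cannot show whether fragments of Ly6c1 or Ly6a were counted for another gene.

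The log2 ratio of Ly6c2 to Ly6c1 was 8.81, 8.92 and 7.27 in WT and 9.48, 8.58 and 9.43 in Hemgn-/- libraries, an overlap with an exact two-sided permutation p of 0.3 and a difference of 0.83, or 0.67 with Hemgn-/- replicate 1 and 0.30 with WT replicate 3 left out. Ly6c2 thus made up nearly all of the Ly6C signal in both genotypes.

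Ly6g, the neutrophil antigen gene, measured 378, 434 and 358 FPKM among WT libraries against 250, 369 and 304 FPKM among Hemgn-/- libraries. The groups overlapped in that Hemgn-/- replicate 2 lay above WT replicate 3. The log2 fold change was −0.36 (standard error 0.13, 95% interval −0.66 to −0.048), with an unadjusted p of 0.0281 and an adjusted p of 0.174 from limma, and the ratio of means was 0.788. Over 15 alternatives the adjusted p ran from 0.0757 to 0.402. The log2 fold change itself was −0.50 when Hemgn-/- replicate 2 was left out and −0.22 when replicate 1 was.

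Ly6d, the lymphoid progenitor marker, measured 77.1, 66.3 and 102 FPKM among WT libraries against 74.8, 81.5 and 96.1 FPKM among Hemgn-/- libraries. The WT values spanned the whole range of the Hemgn-/- values. The log2 fold change was 0.057 (standard error 0.15, 95% interval −0.29 to 0.41, adjusted p = 0.867 from limma), so no difference was detected. A difference beyond this interval could also go uncalled, as that of Ly6a did at 0.58 with a standard error of 0.15. The sign of the Ly6d change turned under 4 alternatives, among them median-ratio scaling (−0.045) and quantile normalization (−0.0042). With Hemgn-/- replicate 1 left out it was 0.14, and with replicate 2 left out 0.076.

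Over the libraries, the profiles of Ly6c2 and Ly6g differed less than those of any other pair of members. With each gene's log2(FPKM + 1) values centred on their mean, the root mean square difference over 6 libraries was 0.070 for Ly6c2 and Ly6g, and from 0.19 to 0.57 for the pairs in which Ly6a took part. The linear ratio of Ly6g to Ly6c2 was 1.29, 1.33 and 1.33 in WT and 1.15, 1.25 and 1.26 in Hemgn-/- libraries, lower in every Hemgn-/- library. This ratio was chosen after its values were seen and has no test.

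As a share of the FPKM sum of the 6 genes, Ly6e made up 18.6%, 17.9% and 18.8% in WT and 26.9%, 24.5% and 25.8% in Hemgn-/- libraries. Ly6a made up 0.812% to 1.12% of this sum in WT and 1.5% to 1.94% in Hemgn-/- libraries. Ly6g made up 39.2% to 42.6% in WT and 33.0% to 36.5% in Hemgn-/- libraries. The makeup of the sum thus differed between genotypes in these 3 members without overlap, a description chosen after the values were seen and with no test. Shares of Ly6c2 (27.2% to 32.1%) and Ly6d (6.51% to 11.1%) overlapped between the groups. These shares depend on the length used, another setting chosen after the values were seen. With the longest coding transcripts Ly6c2 made up 54.1% to 57.2% in WT and 50.1% to 52.8% in Hemgn-/- libraries, without overlap, and Ly6g 21.6% to 22.8% and 17.9% to 19.8%. Ly6a and Ly6e kept apart with that length too, at 0.548% to 0.779% against 1.03% to 1.35% and at 15.9% to 17.1% against 21.99% to 24.2%.

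By the same root mean square difference, the genes most like Ly6a over the 6 libraries were Ube2cbp (0.059), Slc12a9 (0.066) and Slc41a1 (0.075). Those most like Ly6e were Pik3cd, a leukocyte PI3-kinase subunit (0.022), Zfp507 (0.033) and Apeh (0.039), and those most like Ly6c2 were Clec4a2 (0.046), a C-type lectin gene of myeloid cells, Memo1 (0.053) and Esam (0.055). Of these, Ube2cbp and Zfp507 were low, with means of 0.447 and 0.766 FPKM in WT and 1.06 and 1.27 FPKM in Hemgn-/- libraries. At such levels the added 1 flattens a profile. The closest match was that of Pik3cd to Ly6e, with a log2 fold change of 0.36 for each. No interferon-inducible gene of the list given further on was among the 9 genes named here. That list holds only 33 of the 13739 genes tested, so nothing follows from its absence.

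Of 38 other genes of the Ly6/uPAR family listed, 22 were in the table and 7 passed the filter. Lynx1, which encodes a modulator of nicotinic acetylcholine receptors, rose from 6.53, 7.46 and 6.73 FPKM in WT to 9.57, 11.3 and 13.03 FPKM in Hemgn-/- libraries (log2 fold change 0.63, adjusted p = 0.0235 from limma). Plaur, the urokinase receptor gene, fell from 974, 932 and 1047 FPKM to 780, 676 and 688 FPKM (log2 fold change −0.46, adjusted p = 0.00839 from limma). Neither had overlapping groups, and these family members thus moved in opposite directions. I830127L07Rik, a transcribed pseudogene between Ly6c2 and Ly6g that RefSeq lists as the coding gene Ly6a2, was at 533, 580 and 469 FPKM in WT and at 315, 434 and 397 FPKM in Hemgn-/- libraries. Every Hemgn-/- value was below every WT value, with a log2 fold change of −0.47 and an adjusted p of 0.0595 from limma. Ly6g5b, a family gene outside this cluster, was at 14.8 to 16.96 FPKM in WT and 17.2 to 18.2 FPKM in Hemgn-/- libraries (log2 fold change 0.12, adjusted p = 0.501 from limma). Cd59a, an inhibitor of complement (0.32), Ly6i (−0.0077) and 9030619P08Rik (−0.25) did not pass either. The median over the 7 was −0.0077, beside 0.087 for all genes, and ran from −0.12 to 0.063 over the alternatives.

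**Figure D4:**
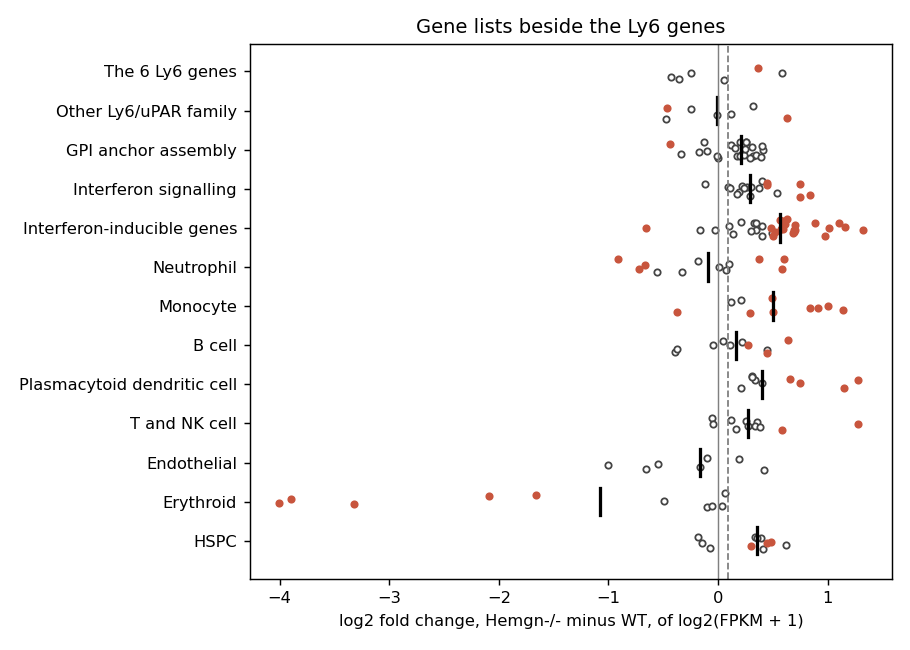
Log2 fold change, Hemgn-/- minus WT, of the tested genes of each list and of the 6 Ly6 genes. Filled points have an adjusted p under 0.05, short black lines are list medians, and the dashed line is the median of all genes tested (0.087). The interferon-inducible and monocyte lists lie mostly to the right of it, and 5 erythroid genes lie far to the left.

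The GPI anchor, on which surface display of all 6 proteins depends, is built by the Pig gene products. Of 24 genes of this assembly tested, 0 rose and 1 fell, Pigx, from 17.7, 18.04 and 20.1 to 13.2, 13.1 and 14.2 FPKM (log2 fold change −0.43, adjusted p = 0.0285 from limma). Pigs (0.20), a subunit of the transamidase that attaches the anchor, and Mppe1 (−0.34), which remodels it, were the most abundant and did not pass. The list median was 0.21 (0.12 after median-ratio scaling), with 18 positive and 6 negative log2 fold changes. The groups lay apart for 9 genes with higher and 2 with lower values in Hemgn-/- libraries. Among all genes tested these shares were 19.2% and 8.18%.

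Ly6a and Ly6e are interferon-inducible, so the genes of interferon signaling were set beside them. Of 18 signaling genes tested, 5 rose and 0 fell, with a median of 0.29 (from 0.20 to 0.38 over the alternatives). Socs3, a feedback inhibitor of cytokine receptors, was at 64.2 to 74.3 FPKM in WT and 119 to 128 FPKM in Hemgn-/- libraries (log2 fold change 0.83). The transcription factor genes Irf8 (0.75) and Irf1 (0.75) rose as well, each with adjusted p under 0.05 from limma. The receptor chain gene Ifngr1 (0.26) and the kinase gene Jak1 (0.19) were the most abundant and did not pass. Among the other receptor chain genes, named after their values were seen, Ifngr2 (0.45) and Ifnar1 (0.45) were called higher and Ifnar2 (0.095) did not pass.

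Of 33 interferon-inducible genes other than the Ly6 members, 20 rose and 1 fell, with a median of 0.56. Cxcl10 (1.32) and Cxcl9 (1.16), chemokine genes, and Gbp2 (1.10), a GTPase gene, rose most among those called. H2-K1, a classical MHC class I gene, was the gene that fell (−0.66, chosen after its value was seen). The most abundant, the MHC class I light chain gene B2m (−0.025) and H2-D1 (0.14), did not pass. The log2 fold changes of Ly6a (0.58) and Ly6e (0.36) thus lay near and below the median of this list.

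Neutrophils express both Ly6g and Ly6c2, and the 12 neutrophil markers were set beside them. All 12 were tested and none was at 0 in any library, with 3 genes called higher and 3 lower. Their summed level was 77024 to 82782 FPKM in WT and 51428 to 57122 FPKM in Hemgn-/- libraries. Ngp alone made up 56.5% of the WT mean of this sum and 70.5% of its fall, and without it the sum was 32263 to 36090 and 24481 to 29161 FPKM. Camp (−0.92), Ngp (−0.73) and Ltf (−0.67), genes of the secondary granules made in neutrophil precursors, fell. S100a9 was at 8742 to 9470 FPKM in WT and 6340 to 9539 FPKM in Hemgn-/- libraries and did not pass (−0.19). The 3 neutrophil markers that rose were Il1b (0.61), Cxcr2 (0.58) and Csf3r (0.37), genes of an inflammatory cytokine and of receptors of mature neutrophils. Retnlg (0.10), Mmp9 (0.076), Mmp8 (0.0065), S100a8 (−0.33) and Lcn2 (−0.56) had overlapping groups and did not pass. All of these were named after their values were seen. The list thus had no common direction. The list median was −0.090, with −0.19 after median-ratio scaling and 0.0085 after quantile normalization. A gate against lineage markers would remove neutrophils, and the study's antibodies include Gr-1, which binds Ly6G and Ly6C, the products of Ly6g and of the Ly6c genes. The part of neutrophil transcripts in the Ly6g and Ly6c2 values was not tested.

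Monocyte markers mostly rose, whereas Ly6c2 had a negative log2 fold change that did not pass. Of 10 markers tested, none of them at 0 in any library, 7 rose and 1 fell, with a median of 0.50. Fn1 (1.14), Ccr2 (1.004), the chemokine receptor gene of Ly6C-high monocytes, and F13a1 (0.91) rose most. Lyz2, which neutrophils also express, fell (−0.37) and held most of the summed level of 23106 to 25852 FPKM in WT and 16862 to 20935 FPKM in Hemgn-/- libraries. Ccr1, the second most abundant, rose (0.29).

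Beside Ly6d, which had a log2 fold change of 0.057, the B cell and plasmacytoid dendritic cell lists had medians of 0.16 and 0.40. The former ran from 0.069, after median-ratio scaling, to 0.24 over the alternatives, and the latter from 0.31 to 0.77, with voom. Of 10 B cell markers, 3 rose and 0 fell, and their summed level was 1195 to 1257 FPKM in WT and 1416 to 1587 FPKM in Hemgn-/- libraries, although lineage-positive cells were gated out. Ms4a1 (0.64), which encodes a surface antigen of B cells, and Cd79b (0.27), a chain of the B cell receptor, were among those that rose, and Cd79a (0.22) did not pass. Of the B cell list 7 genes had positive and 3 negative log2 fold changes. Among genes of B cell precursors, named after their values were seen, Rag1 (−0.38) and Vpreb1 (−0.39) were negative and Igll1 (0.10) positive, and none passed. Of 9 plasmacytoid dendritic cell genes tested, 4 rose and 0 fell. Summed levels over the 10 listed were 117 to 128 FPKM in WT and 163 to 197 FPKM in Hemgn-/- libraries. Bst2 and Irf8, with WT means of 67.8 and 39.2 FPKM, held most of this sum, and both are also on the interferon lists above. Klk1 (1.27), Siglech (1.15) and Irf8 (0.75) rose most, and Bst2 (0.21), the most abundant and itself interferon-inducible, did not pass. Cd209d was at 0 in WT replicate 1.

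T and NK cells and endothelium also carry Ly6a. Of 11 T and NK cell genes, 2 rose and 0 fell (median 0.27, or 0.18 after median-ratio scaling), Cd3d (1.28) and Ncr1 (0.59), with summed levels of 158 to 167 and 183 to 207 FPKM. The most abundant of them, Nkg7 (−0.043) and Gzmb (0.17), did not pass. Of 7 endothelial genes, 0 rose and 0 fell (median −0.17, from −0.55 to −0.11 over the alternatives), with sums of 41.3 to 45.1 and 27.7 to 39.2 FPKM over the 10 listed, Plvap (−1.002) and Pecam1 (0.42) being the most abundant. Erythroid genes, of which 0 rose and 5 of 10 fell (median −1.08, or −2.26 with voom, −2.09 with a pseudocount of 0.1 and −1.66 at a mean FPKM of at least 1), had sums of 498 to 584 and 65.4 to 89.0 FPKM, with Hba-a1 (−4.01), Hbb-bs (−3.90) and Alas2 (−3.32) falling most. Hba-a2 was at 0 in Hemgn-/- replicates 2 and 3. The part of any of these cells in the Ly6 values was not tested.

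Genes of HSPCs other than Ly6a were set beside it, a list that also holds Ptprc and Cd48, which most leukocytes express. Of 11 tested, 3 rose and 0 fell, with a median of 0.36. Ptprc (CD45) was at 87.1 to 88.9 FPKM in WT and 102 to 113 FPKM in Hemgn-/- libraries (0.30), Cd34 was at 7.23 to 8.80 and 10.8 to 11.9 FPKM (0.45), and Cd48 was at 6.43 to 7.89 and 10.0 to 10.6 FPKM (0.48). Each of these rose with an adjusted p under 0.05 from limma. Kit (−0.18), Slamf1 (0.62), Flt3 (0.41) and Procr (−0.076) did not pass, and Slamf1, Flt3 and Procr, which mark stem cells or early progenitors, stayed at or under 2.33 FPKM in every library. Hlf (−0.15), a transcription factor gene of stem cells named after its value was seen, did not pass either.

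**Figure D5:**
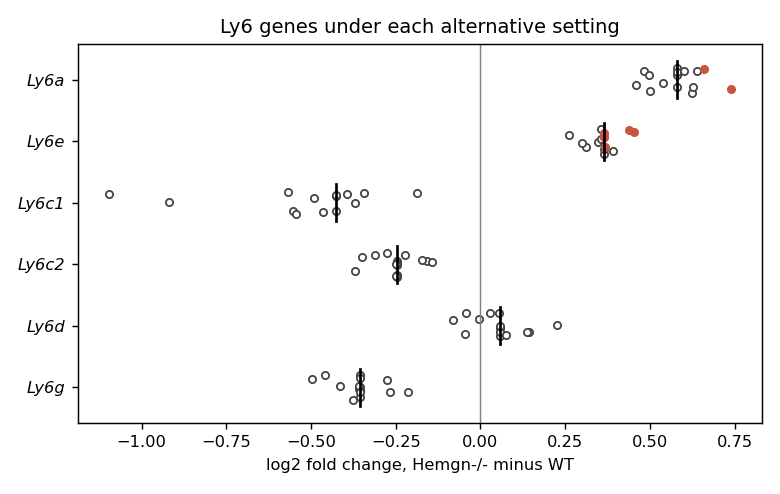
Log2 fold change of each Ly6 gene, Hemgn-/- minus WT, under each alternative setting, 1 point a setting. Filled points have an adjusted p under 0.05, and black lines mark the reported value. Ly6a and Ly6e stay above 0 and Ly6c1, Ly6c2 and Ly6g below 0 under every setting run, while Ly6d lies on both sides.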

How the data were processed

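RNA-seq was analysed from 3 WT and 3 Hemgn-/- libraries. The authors deposited FPKM values per Ensembl gene, 1 column per library. Per the labels, their processing named GRCm38, Bowtie2 2.2.3, HISAT2 2.1.0, TopHat2 and HTSeq 0.6.0, without roles. The annotation, the strand setting and the treatment of fragments that match several genes are not given in the sources used here. WT columns matched sample titles, and Hemgn-/- columns matched the group alone, so those replicate numbers are the columns'. Columns without a sample numbered 0. Symbols, positions and exon lengths came from GENCODE M21 (24921 of 24965 genes matched). Low FPKM values were whole fragments within 0.05 in all libraries for 95.7% of 13474 genes with at most 100 fragments, which gave the depth, and FPKM totals were 369534 to 374913 in WT and 343858 to 358187 in Hemgn-/- libraries. Fragments of amplified cDNA are not independent molecules.

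Values were compared as log2(FPKM + 1), with FPKM above 1 in at least 1 library, by limma 3.58.1 (lmFit, eBayes with a trend, no covariate) in R 4.3.3, two-sided, and all tested genes entered the Benjamini-Hochberg adjustment. The script was tested on simulated data. The members, the gene lists, the rule for named genes and the alternatives were chosen with earlier results of these data known, and the named genes are the 6 members, the tested genes of the wider family, the sort and stem cell markers and, of each other list, up to 3 called genes by absolute change and the 2 most abundant, of which 1 gene is not reported here. Alternatives were a pseudocount of 0.1, 2 other filters, 3 scalings, no trend, a replicate block, voom on recovered fragments, summed copies and leaving out each library. Over all genes tested, same-numbered columns did not deviate together, which does not exclude a pairing. Python 3.11.15 with numpy 2.4.6, pandas 2.3.3, scipy 1.17.1 and matplotlib 3.10.9 served for the other steps.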

Additional observations from a re-analysis of the deposited data

How the results depend on the processing

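Ly6a stayed above 0 under 15 of 15 alternatives and passed an adjusted p of 0.05 with the same FPKM total (log2 fold change 0.66) and without Hemgn-/- replicate 1. With each library left out in turn it ran from 0.46 to 0.74. Ly6e stayed above 0 but lost its call with all genes above 0 FPKM (0.36), with no trend (0.36), after median-ratio scaling (0.26) and after quantile normalization (0.31), and ran from 0.30 to 0.44 with each library left out. The count of members called was therefore 0 under those 4 settings, 2 with the same FPKM total, and 0 to 2 with each library left out. At the study's thresholds the count was 1 rather than 0 with a pseudocount of 0.1, the same FPKM total or voom, and 0 to 1 with each library left out. Ly6d turned below 0 after median-ratio scaling (−0.045) and quantile normalization (−0.0042), and ran from −0.081 to 0.22 with each library left out. Ly6c1 was not tested at a mean FPKM of at least 1. With the length of the longest protein-coding transcript, a setting added after the data were seen, the log2 ratio of Ly6g to Ly6c2 in WT was −1.34 instead of 0.40. The causes were not tested.

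The replicate block changed no call. The same-numbered columns correlated at −0.043, −0.0094 and 0.011, and with the block Ly6e had a log2 fold change of 0.36 (adjusted p = 0.0404 from limma) and Ly6a 0.58 (adjusted p = 0.0721). The block lowered the standard errors of Ly6c2 (0.12 to 0.081), Ly6g (0.13 to 0.089) and Ly6d (0.15 to 0.096) and raised that of Ly6c1 (0.27 to 0.29). Ly6g then had an adjusted p of 0.0757 from limma. Of 12 gene lists, 8 had a median above that of all genes under every setting. Of 180 list medians under alternatives, 118 moved by less than the spread between replicates, 62 moved by more and 7 changed sign. All genes together had a median log2 fold change of 0.0068 after median-ratio scaling and 0.16 with the same FPKM total. With 3 libraries a group, intervals as wide as that of Ly6d limit what could be seen.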
